A study of Mus musculus with 5 samples.

Results

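The globin genes encode the protein chains of haemoglobin, the oxygen carrier of red blood cells. On this array platform 76 probes carried globin symbols only, and 1 further probe carried Car1, which encodes carbonic anhydrase 1, an abundant enzyme of red cells. These 77 probes, of 19828 on the array, name 8 genes of 9196 and are the subject here. They were chosen by platform symbol alone, as every symbol that starts with Hba- or Hbb- and Car1. Another 2 probes whose entry lists a beta globin together with an unrelated gene were left out.

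Each array set RNA of C3H/HeJ mouse macrophages, grown from bone marrow, against RNA of whole C57BL6/J embryos of 17.5 days, total RNA in both. The marrow had been cultured with human CSF-1. The macrophages were unexposed (0 h) or had been exposed to 10 µg per ml of Salmonella minnesota lipopolysaccharide (LPS), a bacterial cell wall component, for 0.5, 2, 7 or 21 h. C3H/HeJ mice carry a mutated Tlr4, the LPS receptor gene, and respond weakly to LPS. There were 5 arrays, 1 for each time, and no replicates, so nothing was tested and the only spread is that between probes of an array or between arrays. The embryo RNA was of whole animals, with blood, fetal liver and all other tissues, and of another strain than the macrophages.

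Haemoglobin is a tetramer of alpha-type and beta-type chains, each holding a heme group. In the mouse, primitive red cells of the yolk sac make the embryonic chains, encoded by Hba-x (zeta), Hbb-y (epsilon y) and Hbb-bh1 (beta h1). Definitive red cells, made first in the fetal liver and later in the marrow, make the adult chains, encoded by Hba-a1 and Hba-a2 (alpha) and by the adult beta genes. By late gestation definitive cells dominate the blood. Macrophages of fetal liver and marrow engulf the nuclei that red cell precursors expel.

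Each value given is a log ratio of macrophage over embryo after the array's median over 8452 genes was subtracted. It measures a difference between these RNAs, not a level. The base of the logarithm is not stated in the labels or the table, and values are left in the deposited units. If the base is 10, a value of -1 is a 10-fold lower signal in macrophages, and 0.301 is a 2-fold difference. The direction is likely rather than stated. It was read from genes that are not globins: at 0 h, 9 of 11 measured macrophage genes were above 0, among them Lyz2 (1.13) and Ctss (1.78). All 11 measured genes of embryo liver and all 15 of other embryo tissue were below 0, beside 48.5% of all genes. The 2 macrophage genes below 0 were Cd68 (-0.16) and Tyrobp (-0.05), both abundant in macrophages. Neutrophil genes (median -0.09 at 0 h, 5 of 6 below 0) and genes of other marrow blood cells (median -0.27, 4 of 7 below 0) were nearer to 0. In bulk RNA, fewer cells of a type and less RNA per cell cannot be told apart.

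The 0.5 h array stood apart. Its SD over all probes was 0.58, against 0.32 to 0.42 on the other arrays, and 1104 probes had no value, against 154 to 257. Means over arrays therefore use the 0, 2, 7 and 21 h arrays, and the 0.5 h values are given separately.

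The sequences upstream of the genes are shown for the likeness of the 2 adult alpha genes and for how the embryonic genes differ from them. Hba-x (chr11:32276600-32278116), Hba-a1 (chr11:32283672-32284486) and Hba-a2 (chr11:32296492-32297310) lie in this order on mouse chromosome 11. Hbb-bh1 (chr7:103841638-103843162) and Hbb-y (chr7:103851754-103853207) lie on chromosome 7, and Car1 (chr3:14766214-14808365) on chromosome 3, all in build GRCm38.p6. Of 8 genes looked up in the RefSeq promoter table of that build, 4 were found. Shown are the 120 bases before each annotated start, on the gene's own strand, 5′ to 3′. Capitals mark the CCAAT box, the CACCC box, the GATAA form of the GATA motif and the TATAA box, searched on both strands, and no match overlapped another.
Hba-a1 (chr11:32283552-32283671, plus strand): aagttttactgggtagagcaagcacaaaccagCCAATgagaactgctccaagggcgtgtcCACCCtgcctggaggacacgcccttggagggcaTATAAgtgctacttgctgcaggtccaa
Hba-a2 (chr11:32296372-32296491, plus strand): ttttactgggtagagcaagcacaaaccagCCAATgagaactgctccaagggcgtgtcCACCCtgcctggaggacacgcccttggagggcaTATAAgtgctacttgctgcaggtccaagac
Hba-x (chr11:32276480-32276599, plus strand): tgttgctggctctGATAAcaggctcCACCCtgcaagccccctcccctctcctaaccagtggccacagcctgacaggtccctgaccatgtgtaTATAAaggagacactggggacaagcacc
Hbb-y (chr7:103853208-103853327, minus strand): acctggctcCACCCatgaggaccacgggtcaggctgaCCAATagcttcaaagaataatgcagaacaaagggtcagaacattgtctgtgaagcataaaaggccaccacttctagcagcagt
The table's entries of Hba-a1 and Hba-a2, each reaching past the start, were alike at 297 of 297 bases once set 3 bases apart. All 4 windows held CACCC, which 31.7% of all 32851 promoter windows of this length held. CCAAT was in 3 of them (21.3% of all windows), TATAA in 3 (11.8%) and GATAA in that of Hba-x (10.5%). These matches describe the letters only.

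On the 0 h array the globin probes had a median log ratio of -1.54, with a range of -2.45 to 0.28 over 76 probes. The median was -1.71 (2 h), -1.46 (7 h) and -1.46 (21 h), and -0.25 (0.5 h) over 74 probes with a value. In units of each array's own median absolute deviation, which do not depend on the base, the medians stood at -10.4 (0 h), -0.98 (0.5 h), -9.45 (2 h), -10.2 (7 h) and -9.84 (21 h). The median was thus far below the centre on 4 arrays and within 1 such unit of it on the 0.5 h array, where single probes ranged from -2.62 to 1.49.

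Most globin probes were at or under -1. At 0 h they were 61 of 76, where 1.29% of all probes on the array were that low. The counts were 60 at 2 h, beside 2.1% of all probes, 57 at 7 h, beside 1.1%, and 59 at 21 h, beside 1.18%. At 0.5 h they were 29 of 74, beside 2.34%. Among the 100 lowest probes of each array, globin probes held 43 places at 0 h, 20 (0.5 h), 40 (2 h), 47 (7 h) and 45 (21 h). That is 56.6% of the globin probes at 0 h and 26.3% at 0.5 h. Nearly all were below 0: 72 of 76 at 0 h, beside 45.7% of all probes, and 74 each at 2 h, beside 46.5%, at 7 h, beside 49.1%, and at 21 h, beside 47.6%. At 0.5 h it was 44 of 74, beside 48% of all probes.

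**Figure D1:**
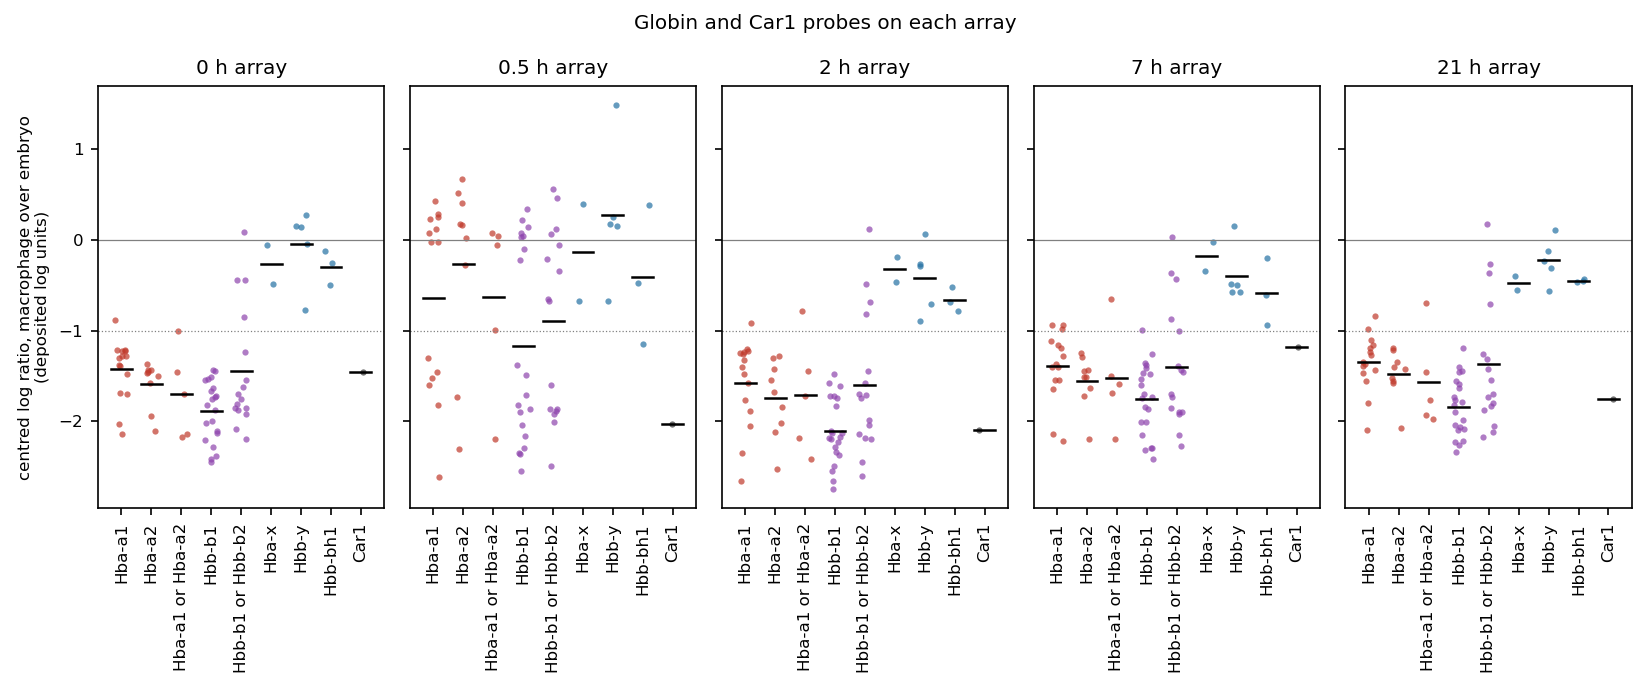
Centred log ratio of macrophage over embryo (deposited log units) for each globin and Car1 probe, by chain, on the 5 arrays; points are probes, bars are means, the dotted line marks -1. Adult chains lie mostly below -1 and embryonic chains mostly above it, while adult probes on the 0.5 h array fall into a low and a high cloud.

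Adult alpha chains had 29 probes: 15 named Hba-a1, 9 named Hba-a2 and 5 with both symbols. The Hba-a1 probes averaged -1.43 ± 0.33 (0 h), -1.57 ± 0.48 (2 h), -1.39 ± 0.39 (7 h) and -1.35 ± 0.31 (21 h) (SD over 15 probes). The Hba-a2 probes averaged -1.59 ± 0.26 (0 h), -1.75 ± 0.42 (2 h), -1.55 ± 0.28 (7 h) and -1.48 ± 0.26 (21 h) (SD over 9 probes). The means of these genes differed by less than the spread between probes on each of the 4 arrays. Which of the alpha transcripts each cDNA probe bound was not tested, so the gene names of these probes are uncertain.

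Probes of the same alpha gene differed more than the arrays did. The Hba-a1 probe with the lowest mean read -2.03 (0 h), -2.66 (2 h), -2.22 (7 h) and -2.10 (21 h). The highest read -0.88 (0 h), -0.92 (2 h), -0.94 (7 h) and -0.84 (21 h). The values of the one never reached those of the other on these arrays. For Hba-a2 the lowest probe averaged -2.22 ± 0.21 and the highest -1.32 ± 0.04 over the 4 arrays (SD over arrays). The 5 probes with both alpha symbols ranged from -2.19 ± 0.18 and -1.96 ± 0.27 at the low end, through -1.72 ± 0.03 and -1.46 ± 0.02, to -0.78 ± 0.15 (mean and SD over the same 4 arrays).

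Adult beta chains had 37 probes: 21 named Hbb-b1, the adult major beta gene, and 16 with the symbols of both Hbb-b1 and Hbb-b2, the adult minor beta gene. Inbred strains differ in their adult beta genes, C57BL/6 and C3H among them, so these names need not be the genes that the embryo RNA came from. The Hbb-b1 probes averaged -1.89 ± 0.33 (0 h), -2.11 ± 0.37 (2 h), -1.75 ± 0.39 (7 h) and -1.84 ± 0.32 (21 h) (SD over 21 probes). Every Hbb-b1 probe was at or under -1 at 0, 2 and 21 h, and 20 of 21 at 7 h. The lowest, without a value at 0.5 h, read -2.39 (0 h), -2.75 (2 h), -2.29 (7 h) and -2.33 (21 h). The highest read -1.43 (0 h), -1.58 (2 h), -1.26 (7 h) and -1.19 (21 h).

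The 16 probes with both beta symbols were more mixed, with a mean of -1.44 ± 0.67 (0 h), -1.60 ± 0.77 (2 h), -1.40 ± 0.68 (7 h) and -1.37 ± 0.71 (21 h) (SD over 16 probes). Of these, 12 were at or under -1 on each of the 4 arrays and 4 were above it. Platform probe 486 was above 0 throughout, at 0.09 (0 h), 0.06 (0.5 h), 0.12 (2 h), 0.04 (7 h) and 0.18 (21 h). Probes 502 (-0.41 ± 0.10), 548 (-0.46 ± 0.15) and 14609 (-0.81 ± 0.07) were the others (mean and SD over the 4 arrays). Probe 554, close to 548 in number, averaged -1.23 ± 0.18 under the same symbols. Whether these probes hold the sequence that the platform annotation gives them was not tested.

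Adult beta stood below adult alpha. The median over probes was -1.76 for beta and -1.46 for alpha at 0 h, -2.10 and -1.55 (2 h), -1.70 and -1.44 (7 h), and -1.76 and -1.41 (21 h). Centring and scaling to a common spread shift or multiply an array as a whole, so they cannot change this order. It was the same in medians and means with quantile normalization and with a running median along probe numbers removed. Quantile normalization keeps the ranking of probes within an array, so the order of the medians could hardly change under it. The probes overlapped all the same: at 0 h, 27 of the 37 beta probes lay within the range of the alpha probes and 6 below it. The difference in means, -0.17 (0 h), -0.24 (2 h), -0.13 (7 h) and -0.21 (21 h), was smaller than the SD between probes of either family.

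The embryonic chains were set apart from the adult ones. Their 10 probes averaged -0.16 ± 0.33 (0 h), -0.47 ± 0.30 (2 h), -0.41 ± 0.32 (7 h) and -0.34 ± 0.21 (21 h) (SD over 10 probes), and none was at or under -1 on these arrays. The 66 adult probes averaged -1.62 ± 0.48 (0 h), -1.78 ± 0.57 (2 h), -1.54 ± 0.49 (7 h) and -1.54 ± 0.49 (21 h). The adult mean was lower than the embryonic mean by more than the SD of either: -1.46 (0 h), -1.31 (2 h), -1.13 (7 h) and -1.20 (21 h). At 0 h, 63 of the 66 adult probes were below the lowest embryonic probe, and at 7 h 61 were. Centring and scaling to a common spread cannot change this order within an array. The difference at 0 h was -1.52 with quantile normalization, which keeps the ranking of probes within an array. It was -1.31 with a running median along probe numbers removed.

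Hba-x, the zeta chain that pairs with embryonic beta-type chains, had 2 probes. Probe 15604 read -0.05 (0 h), 0.40 (0.5 h), -0.19 (2 h), -0.03 (7 h) and -0.40 (21 h). Probe 16001 read -0.48 (0 h), -0.67 (0.5 h), -0.46 (2 h), -0.34 (7 h) and -0.56 (21 h). The second was the lower on every array.

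Hbb-bh1, a beta-type chain of primitive red cells, had 3 probes, all below 0 at 0, 2, 7 and 21 h. Probe 14933 read -0.50 (0 h), -1.14 (0.5 h), -0.78 (2 h), -0.94 (7 h) and -0.46 (21 h). Probe 16105 averaged -0.36 ± 0.15 and probe 16632 -0.46 ± 0.25 over the 4 arrays (SD over arrays). At 21 h the 3 probes lay between -0.46 and -0.43, closer together than on any other array.

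Hbb-y, the other embryonic beta-type chain, had 5 probes that did not move together. Probe 14947 read -0.77 (0 h), -0.68 (0.5 h), -0.90 (2 h), -0.58 (7 h) and -0.57 (21 h), the lowest of the 5 on each array. Probe 16629 was above 0 throughout, at 0.15, 0.18, 0.07, 0.16 and 0.12 in the same order of times. Probes 15300, 15770 and 16837 read -0.04, 0.15 and 0.28 (0 h) and -0.70, -0.29 and -0.27 (2 h). At 7 h these 3 stood at -0.49, -0.58 and -0.49. They were thus near or above 0 before LPS and below it at 2 and 7 h, while 14947 and 16629 differed from their 0 h value by at most 0.19 at those times.

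The single Car1 probe was low on every array: -1.46 (0 h), -2.03 (0.5 h), -2.10 (2 h), -1.18 (7 h) and -1.75 (21 h). Its SD over the 0, 2, 7 and 21 h arrays was 0.39, and single globin probes reached 0.40 (probe 354) and 0.44 (probe 363). Over the 4 arrays the SD of a globin probe was 0.18 in the median, beside 0.11 for all probes. The SD between globin probes of an array was 0.65 in the median.

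Ranked by mean over the 0, 2, 7 and 21 h arrays among 8842 genes, Hbb-b1 was 3rd from the bottom (-1.90 ± 0.15, SD over arrays), Car1 9th (-1.62 ± 0.39), Hba-a2 11th (-1.59 ± 0.11) and Hba-a1 18th (-1.44 ± 0.10). The embryonic genes ranked 308 (Hbb-bh1), 706 (Hba-x) and 851 (Hbb-y). The other genes among the 10 lowest were Rras (-2.21), a small GTPase, Fstl1 (-1.96), a secreted glycoprotein, Gas1 (-1.74), a growth arrest gene, and Alb (-1.74), serum albumin of liver. Pitpnb (-1.71), Nedd4 (-1.68), Nppb (-1.65) and Ddx21 (-1.62) completed them. All but Alb, with 6 probes, and Hbb-b1, with 21, rested on 1 probe. Closest to the mean over globin probes on these 4 arrays, by root mean square distance, were Postn (0.06), Krt1 (0.11), Fga (0.11), Col6a1 (0.13) and Myl1 (0.13), genes of connective tissue, skin, liver and muscle.

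Other red cell genes were much nearer to 0 than the adult globins. Of 55 listed genes, Car1 among them, 34 had a value at 0 h. Their median was -0.07, with 21 below 0, beside 48.5% of all genes, and 1 at or under -1, beside 0.689%. That 1 gene was Car1. The median was -0.08 (2 h), -0.06 (7 h) and -0.09 (21 h). On these arrays Car1 was again the 1 gene at or under -1, beside 1.3% of all genes at 2 h, 0.478% at 7 h and 0.589% at 21 h. At 0.5 h there were 2, Car1 and Ube2l6 (-1.55), beside 1.49%.

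By role the counts were small, and 48.5% of all genes were below 0 at 0 h. Of 7 measured heme synthesis genes 5 were below 0 at 0 h, with a median of -0.07. Alas2, the erythroid form of the first enzyme of heme synthesis, was the lowest of them at -0.60 ± 0.07 over the 4 arrays (SD over arrays). Of 9 measured enzymes and chaperones 8 were below 0 at 0 h, with a median of -0.21. They included Car2 (-0.59 ± 0.10), a second carbonic anhydrase, and Bpgm (-0.47 ± 0.17), which makes the regulator of oxygen affinity. Of the 7 measured membrane genes 5 were below 0 at 0 h, with a median of -0.07. Slc4a1, the anion exchanger of the red cell membrane, was among the 2 above 0 at 0 h, with 0.17 ± 0.08 over the 4 arrays. Of the 6 measured transcription factors 3 were below 0 at 0 h, with Gata1 (0.17 ± 0.11) and Klf1 (-0.20 ± 0.10), both regulators of globin genes, on either side of 0. Alas2, Car2, Bpgm, Slc4a1, Gata1 and Klf1 were picked for naming after their values were seen.

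Receptor and iron genes lay on the other side of 0. All 5 measured ones, Tfrc (0.17 ± 0.07) and Epor (0.34 ± 0.20) among them, were above 0 at 0, 2, 7 and 21 h, where 48.5% of all genes were below 0 at 0 h. Steap3, a reductase of endosomal iron, was at 0.87 ± 0.39, and the ferritin chains Ftl1 and Fth1 were at 0.67 ± 0.03 and 0.54 ± 0.07 (mean and SD over 4 arrays). Ferritin stores iron in macrophages as well as in red cell precursors. The other globin-fold genes were near 0: Mb, the myoglobin of muscle, at -0.10 ± 0.10, Cygb at 0.11 ± 0.07 and Ngb at 0.29 ± 0.31.

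**Figure D2:**
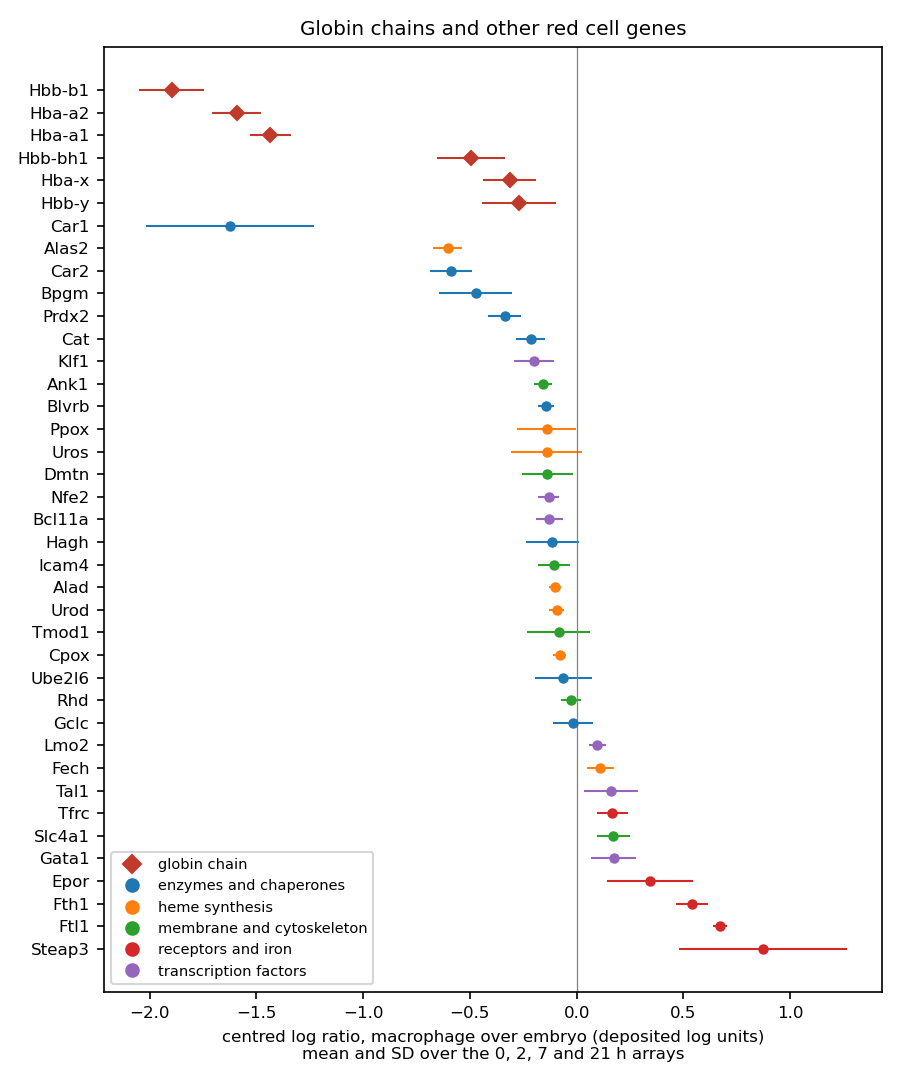
Mean centred log ratio of macrophage over embryo (deposited log units, horizontal axis) over the 0, 2, 7 and 21 h arrays, with SD over arrays as bars, for the 6 globin genes with probes of their own and for other red cell genes by role. Adult globins and Car1 stand at -1.44 or lower, embryonic globins between -0.50 and -0.27, and receptor and iron genes above 0.

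The comparison of LPS times with the unexposed cells asks whether the globin ratio differed between arrays made with different macrophage RNA. All 4 differences share the 0 h array. At 2 h the globin probes differed from 0 h by a median of -0.17 ± 0.23 (SD over 76 probes), where the median over all probes was -0.01. With arrays scaled to a common spread the median was 0.13, and with quantile normalization 0.07, so its sign depends on the scaling. The 2 h array had a wider spread of ratios than the 0 h array, with a median absolute deviation of 0.18 against 0.15. Under centring alone 23 of 76 probes were lower by the 2-fold rule, beside 4.01% of all probes, and 1 was higher, beside 6.31%.

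At 7 h the globin median differed from 0 h by 0.03 ± 0.25, with 8 probes higher, beside 4.45% of all probes, and 5 lower, beside 3.62%. At 21 h it differed by 0.05 ± 0.21, with 5 higher, beside 5.93%, and 4 lower, beside 7.95%. Both medians were smaller than the spread between probes, and with quantile normalization, which leaves out 2 probes without a 0.5 h value, they were -0.05 and -0.02. The 0.5 h difference had a median of 0.37 ± 1.02 (SD over 74 probes), with 37 higher, beside 19.9%, and 13 lower, beside 12.8%. With arrays scaled to a common spread 63 were higher and 0 lower, and with quantile normalization 2 were lower. Shares of all probes under these scalings are not given here, so these counts cannot be compared with all probes. The 0.5 h array had a median absolute deviation of 0.25 against 0.15 at 0 h, so scaling by itself drew its low values towards 0. For the 12 globin probes in stretches of the platform where the 0.5 h array followed the others the median was -0.35.

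The families split in these counts. The 8 higher probes at 7 h and the 5 at 21 h were all of adult chains, and the 5 and 4 lower probes all of embryonic chains, when arrays were only centred. Adult chains held 66 of the 76 globin probes. Of these 66, 12.1% were higher at 7 h, beside 4.45% of all probes, and 7.58% at 21 h, beside 5.93%, which is near that share. With quantile normalization 1 adult probe was lower at 7 h and 4 at 21 h, beside 7 and 3 higher, and with arrays scaled to a common spread 1 adult probe was lower at 7 h. Counts under these scalings have no share of all probes beside them. Adult alpha differed by -0.13 ± 0.20 (2 h), 0.06 ± 0.16 (7 h) and 0.10 ± 0.19 (21 h). Adult beta differed by -0.19 ± 0.24 (2 h), 0.10 ± 0.22 (7 h) and 0.06 ± 0.17 (21 h). The means of both at 2 h were 0.17 (alpha) and 0.15 (beta) with arrays scaled to a common spread, and 0.12 and 0.08 with quantile normalization, which also put alpha at -0.03 (7 h) and beta at -0.01 (21 h).

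Embryonic probes differed by -0.31 ± 0.23 (2 h), -0.24 ± 0.37 (7 h) and -0.18 ± 0.23 (21 h) (SD over 10 probes), and their means were below 0 under each of the 5 scalings at these times. Of the 10, 4 were lower by the 2-fold rule at 2 h, beside 4.01% of all probes, 5 at 7 h, beside 3.62%, and 4 at 21 h, beside 7.95%. With a running median along probe numbers removed 2 were lower at 21 h, a count without a share of all probes beside it. None of the 10 was higher by that rule, but with centring alone 1 lay above its 0 h value at 2 h, 5 at 7 h and 2 at 21 h. Hbb-y had 3 of the lower probes at 2 h, 3 at 7 h and 2 at 21 h. Its probe 16837, furthest from its 0 h value at 7 and 21 h, differed by -0.55 (2 h), -0.77 (7 h) and -0.59 (21 h). The difference between embryonic and adult chains was not tested, and it rests on the 1 array at 0 h that all times share. Car1 differed by -0.64 (2 h), 0.27 (7 h) and -0.30 (21 h) on its 1 probe, and by -0.26 (2 h) with arrays scaled to a common spread.

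**Figure D3:**
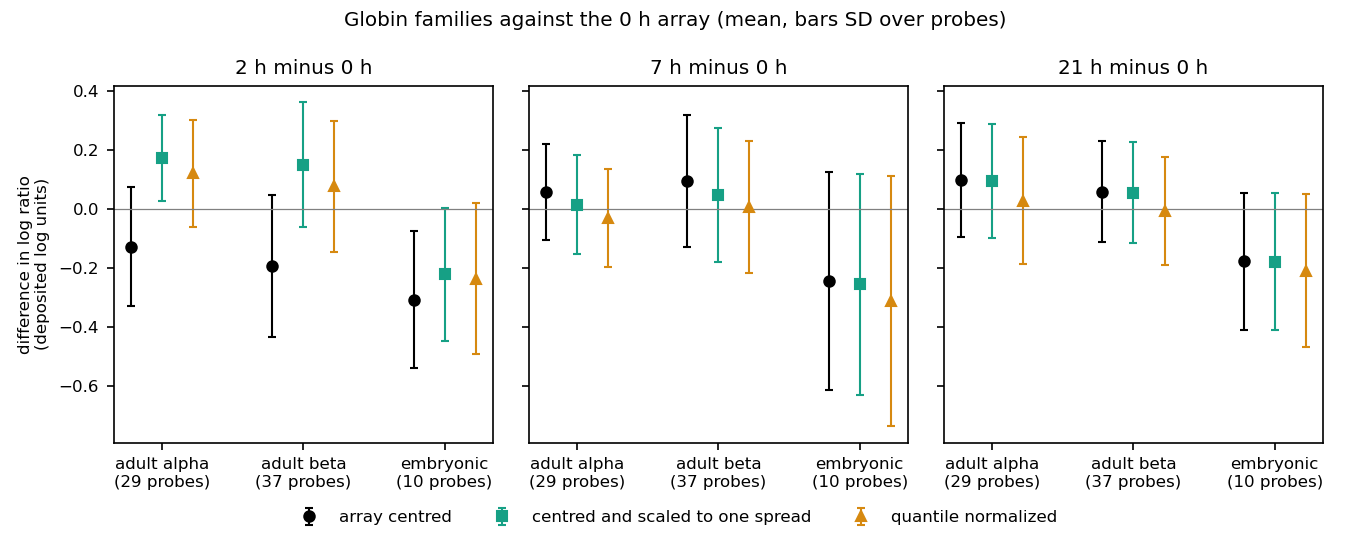
Difference in log ratio from the 0 h array (deposited log units) at 2, 7 and 21 h for adult alpha, adult beta and embryonic globin probes, as mean with SD over probes, under 3 scalings, of which quantile normalization leaves out 1 alpha and 1 beta probe. The means of the adult families at 2 h lie below 0 when arrays are only centred and above 0 under both other scalings. The embryonic means lie below 0 in every panel, though single embryonic probes lay on either side of 0.

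The 0.5 h array divided the adult globin probes. On the 0, 2, 7 and 21 h arrays 57 probes were at or under -1 each time, 25 of alpha and 32 of beta chains. At 0.5 h, 27 of these were again at or under -1, between -2.62 and -1.37, and 28 were above -0.5, between -0.34 and 0.67. None lay between -1 and -0.5, and 2 had no value. These 57 were picked for low values on the other arrays, so some return towards 0 follows from the choice. At 0 h the 27 had a median of -1.75 and the 28 a median of -1.58, with ranges that overlap almost wholly.

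The low and high probes are described by platform number and by chain. Number 5000, used to divide the platform, was chosen after the values were seen. Globin probes had numbers from 354 to 4126 or from 13728 to 17493. Of the 57, the 11 with numbers up to 5000 were all at or under -1 at 0.5 h. Of the 46 with higher numbers, 16 were at or under -1 and 28 above -0.5. The alpha chains had 8 low and 16 high probes and the beta chains 19 low and 12 high. Among numbers above 5000 alone, alpha had 5 low and 16 high and beta 11 low and 12 high. Neither platform number nor chain divides the probes cleanly, and the part of either was not tested. The lowest Hba-a1 probe at the other times, number 14427, read 0.23 (0.5 h), and the lowest Hba-a2 probe, number 14589, read 0.52. Means by gene at 0.5 h, such as -0.64 ± 1.02 for Hba-a1 and -1.17 ± 1.08 for Hbb-b1 (SD over 14 and 20 probes), fall between these clouds.

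Probes of other genes were also divided at 0.5 h. Of 101 probes that are not globins or Car1 and were at or under -1 on the same 4 arrays, 37 had numbers up to 5000. Of the 36 of these with a value at 0.5 h, 35 were at or under -1 and none above -0.5. Of 63 with higher numbers and a value, 35 were at or under -1 and 26 above -0.5. Among higher numbers the share above -0.5 was 63.6% for globins and 41.3% for these probes, a difference that was not tested. The shares do not cover the same stretch. The globin probes had numbers from 13728 to 17493, and these probes were taken from all numbers above 5000. The other probes within 20 numbers of each globin probe gave a median absolute difference between 0.5 h and the mean of the other arrays. It was 0.34 in the median (0.14 to 0.66) near the 28 high probes. Near the 27 low probes it was 0.22 (0.09 to 0.43), so the ranges overlap, and over all such probes of the array 0.17. The 27 included all 11 with numbers up to 5000 and the 28 none. Over all such probes it was 0.15 at numbers up to 5000 and 0.18 at higher numbers. The 12 globin probes in stretches of 400 numbers where the 0.5 h array followed the others (correlation of at least 0.7 over other probes) had a median of -2.03 (0.5 h) and -1.74 (0 h).

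**Figure D4:**
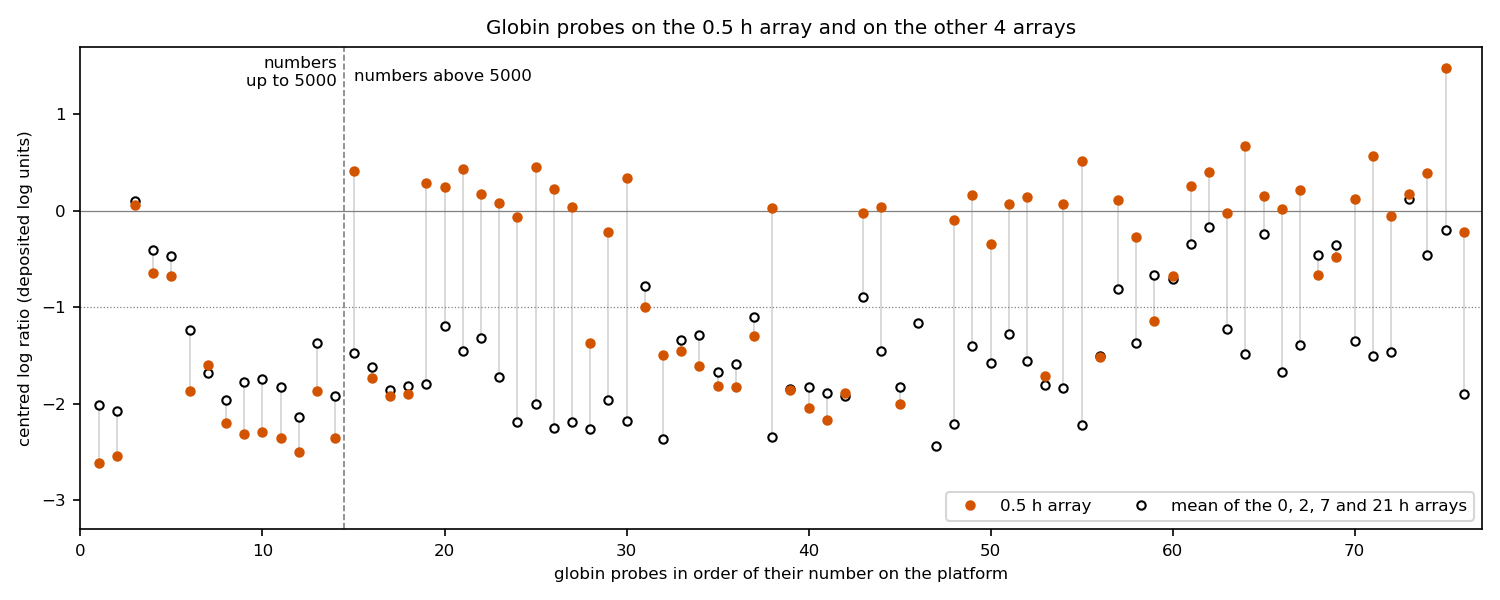
Centred log ratio (deposited log units) of the 76 globin probes in order of platform number, on the 0.5 h array (filled) and as the mean of the 0, 2, 7 and 21 h arrays (open); lines join the values of a probe and the dashed line marks number 5000. Left of it no filled point lies far above its open point and 9 of 14 lie lower by the 2-fold rule, and right of it many filled points lie near 0 above open points between about -1.2 and -2.4.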

How the data were processed

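The authors deposited 1 log ratio per probe for each of 5 two-colour cDNA arrays, read here as log10. Per the labels, an indirect amino-allyl protocol with Cy3 was used on total RNA. The sources used here do not give the scanner, background correction, normalization, log base or numerator channel. The number of arrays limits the precision. Deposited medians were 0.04 (0 h), 0.07 (0.5 h), 0.05 (2 h), 0.00 (7 h) and 0.03 (21 h).

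Of 19828 probes, 14759 had 1 symbol, 170 several and 4899 none in the platform annotation; 14628 were updated by Entrez identifier through RefSeq (GRCm38.p6). Arrays were centred on the median over 8452 named genes measured on all 5 arrays, and a gene's probes were averaged. A probe with several globin symbols was placed in its family, not in a gene. Genes were named by rule: all members, the 10 lowest genes, the 5 closest to the globin mean, and red cell genes below -1 or above 0.5. Other named marker and red cell genes were picked after their values were seen. The members and lists were chosen with earlier results of these data known. Alternatives covered centring, scaling, position, missing values, cutoffs and baselines. The steps were tested on simulated data. Python 3.11.15, numpy 2.4.6, pandas 2.3.3 and matplotlib 3.10.9 were used.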

Additional observations from a re-analysis of the deposited data

How the results depend on the processing

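No paired analysis was possible because each group held 1 array. Of the alternative values of the main results, 224 moved by less than the spread or stayed within 1.5 times, 42 moved further, and 1 (the 0.5 h difference within stretches) reversed. The median difference from 0 h changed sign with quantile normalization at 2, 7 (-0.05) and 21 h (-0.02), with scaling at 2 h, and within stretches at 0.5 h. Leaving out 1 array, the mean of the array medians ranged from -1.54 (without 0.5 h) to -1.18, beside -1.28 with all 5.

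Within stretches where the 0.5 h array followed the others, which held 12 of the 76 globin probes, the globin median at 0.5 h was -2.03. The median difference from 0 h there was -0.35, beside 0.37 over all globin probes. The cause was not tested. At 2 h the median difference was 0.13 with arrays scaled to one median absolute deviation and 0.067 with quantile normalization. Scaled so, 63 probes at 0.5 h and 12 at 2 h were higher and 0 and 4 lower, and 1 red cell gene was at or under -1 at 0.5 h. With quantile normalization 7 were higher at 2 h and 3 at 21 h, and 2 at 0.5 h, 6 at 2 h and 8 at 21 h lower. With the running median removed 2 were lower at 21 h. At a cutoff of -1.5, 35 globin probes counted at 7 h and 36 at 21 h.

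Shares of all probes past a difference rule are given here only for the 2-fold rule against 0 h under centring alone. Counts under other rules, cutoffs, scalings and baselines have no share beside them, so they cannot be compared with all probes. With a 1.5-fold rule 2, 18 and 18 probes were higher at 2, 7 and 21 h, and 20, 38, 8 and 9 lower at 0.5, 2, 7 and 21 h. With a 3-fold rule 3 were higher at 7 h and 3 at 21 h, and 4, 8, 3 and 1 lower at the 4 times. With a rule of 1 deposited unit, which is 2-fold if the base is 2, 0 were higher at 2, 7 and 21 h and 0 lower at all 4 times. Against the 2 h array 29 were higher at 7 h and 27 at 21 h, and 2, 3 and 1 lower at 0.5, 7 and 21 h. Against the mean of the 0, 2 and 7 h arrays 3 were lower at 7 h. Probes with 1 globin symbol and adult chains alone were chosen after seeing the data, and gave medians of -1.47 and -1.65 at 0 h.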

Other observations

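Of the 2 probes whose entry lists a beta globin with another gene, probe 561 was among the lowest on the arrays, at -2.54 (0 h), -3.11 (0.5 h), -2.76 (2 h), -2.01 (7 h) and -2.49 (21 h). The other, probe 553, read -0.22 (0 h), -0.14 (2 h), -0.48 (7 h) and 0.56 (21 h), with no value at 0.5 h.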
